A study of Homo sapiens with 12 samples.

Results

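The potassium channel genes are the 94 autosomal protein-coding genes of GENCODE release 44 (hg38) whose symbol starts with KCN, out of 19111 autosomal protein-coding genes in all. They were read for H3K27me3 peaks in SH-SY5Y cells, a human neuroblastoma line of sympathoadrenal origin. The groups were wild type cells that express Tau (WT) and the Tau knock-out (Tau-KO) lines 231K and 232P, all made from SH-SY5Y, untreated, with 2 samples of each genotype and 1 peak list per sample. Each Tau-KO line is a single line, so an effect of the knock-out and a difference between cell lines cannot be told apart. An H3K27me3 list does not show the Tau protein, so the lists do not check the knock-out. In both lists labelled 232P the peak names start with 231P, which the study uses for another of its Tau-KO lines. The values given for 232P are those of the libraries with that label, and which line they came from was not settled here. The 6 input samples were not analysed here. The comparison asks which potassium channel genes carry the mark and whether it differs in cells without Tau.

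Potassium channels let potassium ions leave or enter the cell and set the resting potential, the shape of the action potential and the firing rate of nerve cells. Voltage-gated pore subunits open on depolarization, silent subunits work only together with them, inward rectifiers and two-pore channels hold the resting potential, and a further class opens on intracellular calcium or sodium. Trimethylation of lysine 27 on histone H3 (H3K27me3) is placed by polycomb repressive complex 2 (PRC2) and marks genes that are kept silent, often genes of other tissues or of another stage of development.

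A gene was given a TSS mark in a sample when at least 1 bp of a peak lay within 1 kb of any of its annotated start sites. The covered share is the percentage of the gene with 1 kb on each side that lies under peaks. The lists were of unequal size, at 285826, 271413 and 147118 peaks for replicate 1 of WT, 231K and 232P, and at 222191, 212347 and 199677 for replicate 2. Replicate 1 lists held narrower peaks than replicate 2 lists, with a smallest width of 175 to 179 bp against 240 to 262 bp. Of all lists, that of 232P replicate 1 covered the least of the autosomes, at 66.6 Mb against 179.9 to 263.6 Mb in the other 5. Read totals are not part of the lists, so a missing peak means that none passed the threshold in that library. Fewer cells with the mark and less of the mark per cell cannot be told apart in such bulk samples. The start sites of 8 of 10 marker genes of sympathoadrenal cells (PHOX2A, HAND2, GATA2, GATA3, ISL1, DBH, TH and CHGA) had no peak in any sample. Of 9 marker genes of muscle, liver, blood, mesenchyme and epidermis, 5 had a TSS mark in all 6 samples (MYF5, ALB, PRRX1, TP63 and KRT5).

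A TSS mark in all 6 samples was found in 22 potassium channel genes, or 23.4%, beside 10.8% of all autosomal protein-coding genes. Another 15 had it in 1 to 5 samples. In 3 genes, KCNE1 among them, peaks lay only elsewhere in the gene in every sample, and 6 had such peaks in some samples. The remaining 48 genes, or 51.1%, had no peak at all in any sample, against 75% of all genes. The potassium channel genes thus ranged from a marked group to a free group without peaks, with the other genes in between. The count of 22 became 8 at a -log10 q-value of 5 or more, and 13 with at least 500 bp of a start site window covered. Among genes of other channels, none of the 14 sodium channel (SCN) genes had a TSS mark in all 6 samples and 12 had no peak. Of the 25 calcium channel (CACN) genes 4 had it and 14 had no peak. Of the 45 glutamate, GABA and glycine receptor genes 15 had it and 10 had no peak.

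The 22 genes with a TSS mark in all 6 samples had a median length of 161 kb, against 22.8 kb in the 48 genes without a peak, and both groups had a median of 4 start sites. Over all autosomal protein-coding genes the order was the other way, with 21.7 kb in those with the mark in all 6 samples and 27.6 kb in those without a peak. The part of gene length in these counts was not tested. A long gene with many start sites can carry a mark away from its main one. At the canonical start site alone, 14 potassium channel genes, or 14.9%, had the mark in all 6 samples, beside 8.39% of all genes. The 8 that differ are KCNA1, KCNA2, KCNS3, KCNK10, KCNK12, KCNN2, KCNN3 and KCNMA1, whose marks in at least 1 sample lay at other start sites only. The shares by role show voltage-gated pore and calcium- or sodium-activated subunits with the highest share in all 6 samples, and auxiliary subunits with the lowest.

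**Figure D1:**
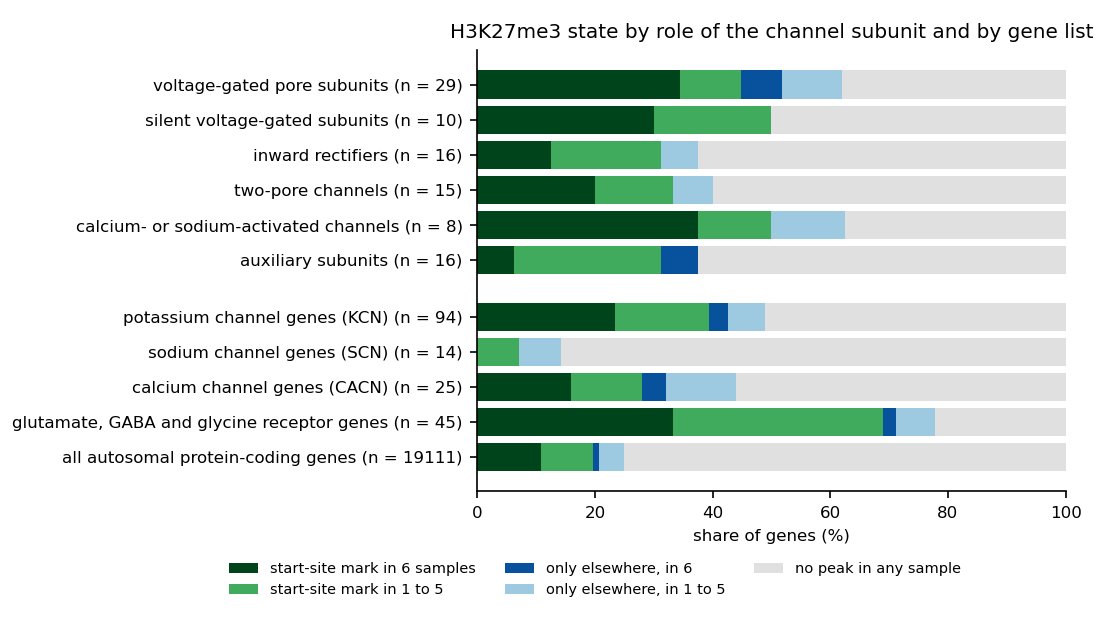
Share of genes (percent, x axis) in each H3K27me3 state, for the roles of the potassium channel subunits and for the gene lists (y axis, n genes each). Dark green is a TSS mark in all 6 samples, which 23.4% of the potassium channel genes and 10.8% of all autosomal protein-coding genes had; grey is no peak in any sample, at 51.1% and 75%.

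Of the 29 voltage-gated pore subunit genes, 10 had a TSS mark in all 6 samples, 3 in some and 11 no peak. Over all genes, 10.8% had it in all 6 samples and 75% had no peak. The KCNA subfamily, whose Shaker-type channels open at low voltage and limit firing, had the most marked genes, 6 of 8 (KCNA1, KCNA2, KCNA4, KCNA5, KCNA6 and KCNA7). KCNA3 had only short peaks elsewhere in 5 samples and KCNA10 none. Both KCND genes, which encode the A-type channels of nerve and heart, had the mark in all 6 samples, as did KCNB2 of the delayed rectifiers and KCNC2 of the fast KCNC channels of interneurons. In the KCNH subfamily, the ether-a-go-go and ERG channels, none of the 8 genes had a TSS mark in all 6 samples, beside 10.8% of all genes. Of them 6, including the long genes KCNH1, KCNH7 and KCNH8, had no peak, beside 75% of all genes. The difference between subfamilies was not tested. In KCNH5 the mark was in 5 samples and in KCNH3 in 2, as a peak of 291 bp in WT replicate 1 and 216 bp in 232P replicate 1. Of the KCNQ genes, which encode the M-current channels and their cardiac relative, only KCNQ5 had a TSS mark, in all samples but 232P replicate 1. A TSS mark was absent from every sample in 80.4% of all genes.

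The windows of 4 genes are shown for what the start sites of marked and free genes look like. Each is 300 bases of hg38, from 250 before to 50 after the canonical start site, on the strand of the gene, and capitals mark each CG. KCNA4 (chr11:30016981-30017280, minus strand) carried a TSS mark in all samples, with no peak over this window in any. KCNC2 (chr12:75209790-75210089, minus strand) was marked and its window lay under a peak in all 6 samples. KCNF1 (chr2:10911684-10911983, plus strand) had a mark in both WT samples and 1 sample of 232P. KCNH2 (chr7:150978272-150978571, minus strand) had no peak.
KCNA4: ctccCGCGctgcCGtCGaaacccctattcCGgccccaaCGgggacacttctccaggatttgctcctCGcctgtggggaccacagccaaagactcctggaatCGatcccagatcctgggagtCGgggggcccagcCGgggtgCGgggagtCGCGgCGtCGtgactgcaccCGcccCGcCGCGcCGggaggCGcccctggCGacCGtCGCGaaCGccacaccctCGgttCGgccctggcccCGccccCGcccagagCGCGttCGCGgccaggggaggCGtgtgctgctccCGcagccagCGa
KCNC2: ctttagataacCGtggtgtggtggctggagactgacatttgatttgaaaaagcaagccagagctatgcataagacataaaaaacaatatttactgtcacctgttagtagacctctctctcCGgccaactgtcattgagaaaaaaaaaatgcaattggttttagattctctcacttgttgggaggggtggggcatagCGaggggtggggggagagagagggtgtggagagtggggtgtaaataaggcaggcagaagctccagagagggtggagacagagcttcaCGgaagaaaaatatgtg
KCNF1: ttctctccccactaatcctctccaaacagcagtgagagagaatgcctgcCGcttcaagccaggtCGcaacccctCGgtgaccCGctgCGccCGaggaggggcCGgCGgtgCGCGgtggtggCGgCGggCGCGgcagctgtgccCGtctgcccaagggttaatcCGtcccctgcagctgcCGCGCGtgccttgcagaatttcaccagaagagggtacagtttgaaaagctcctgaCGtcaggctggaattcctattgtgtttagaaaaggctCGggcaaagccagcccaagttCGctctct
KCNH2: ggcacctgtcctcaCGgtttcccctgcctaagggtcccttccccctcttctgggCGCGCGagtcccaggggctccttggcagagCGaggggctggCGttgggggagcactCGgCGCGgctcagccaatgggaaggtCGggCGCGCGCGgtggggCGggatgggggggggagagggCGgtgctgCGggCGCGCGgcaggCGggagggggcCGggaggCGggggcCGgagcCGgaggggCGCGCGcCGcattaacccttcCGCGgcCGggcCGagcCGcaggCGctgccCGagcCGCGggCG
The window of KCNA4 has 37 CG and a GC content of 73.3%, and that of the free gene KCNH2 has 39 and 78.3%. That of KCNC2 has 4 CG and 46.3% GC. So a window rich in CG occurred with and without a mark around it.

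The highest covered share over the 6 samples was that of KCNA4, which encodes an A-type channel. The WT samples were at 69.1% and 77.9% (replicate 1 first, as in all pairs of values that follow), those of 231K at 66.6% and 80.4%, and those of 232P at 27.7% and 60.1%. WT and 231K overlapped, and both 232P samples lay below them. In KCNA1, an axonal channel whose mutations cause episodic ataxia, the covered share was 69.3% and 73.4% in WT, 71.5% and 67.8% in 231K, and 38.8% and 57.8% in 232P. In KCNA6 it was 73.7% and 65.5% in WT, 59.3% and 62.7% in 231K, and 36.9% and 46.8% in 232P. Both lines lay below WT in KCNA6, and only 232P in KCNA1. Of all genes with a mean covered share of at least 1%, 47.2% lay below WT without overlap in 232P and 13.4% in 231K.

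KCNA6, KCNA1 and KCNA5 are neighbours on chromosome 12, with gaps of 96.6 and 126 kb between them, and all 3 had a TSS mark in every sample. Peaks of the 6 lists merged to a mark at chr12:4911880-4973293, which is 61414 bp wide, starts within KCNA1 and runs on behind it. KCNA5, an atrial channel, was covered over 61.4% and 47.7% in WT, 55.0% and 51.5% in 231K, and 54.6% and 48.3% in 232P, and the genotypes overlapped. The fold enrichment at the summit of its best TSS peak (reads over local background, each with 1 added) was 7.54 and 7.15 in WT, 6.56 and 8.75 in 231K, and 6.96 and 7.50 in 232P. In 232P its covered share overlapped that of WT, while those of its neighbours lay below WT. The difference between KCNA5 and its neighbours was not tested. Merged peaks at KCNA6 also reach into GALNT8, so the mark spans a neighbouring gene as well.

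**Figure D2:**
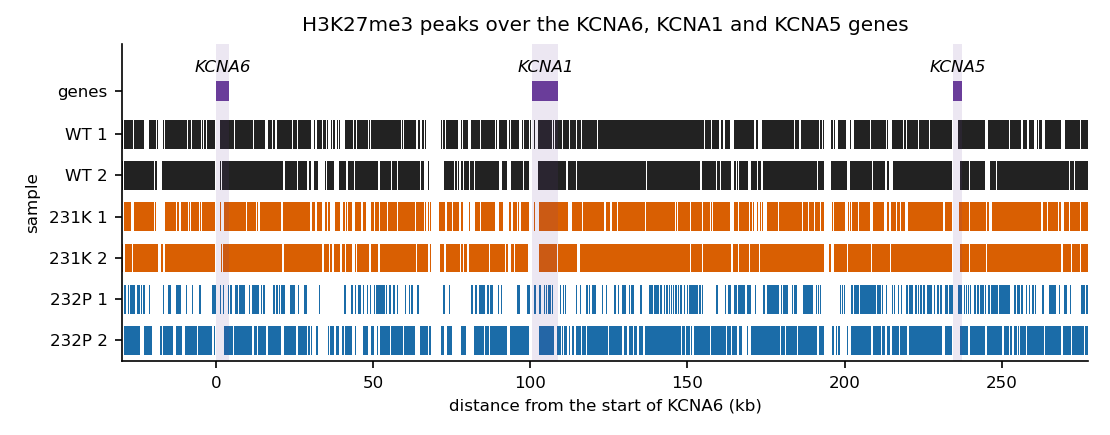
Peaks of each of the 6 lists (rows, bars to scale) over the KCNA6, KCNA1 and KCNA5 genes, by distance from the start of KCNA6 in kb (x axis); gene spans are shaded purple. Peaks fill most of the region in WT and 231K, and short separate peaks lie there in 232P replicate 1, where KCNA1 was covered over 38.8%.

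The pore subunit KCND2, which carries the transient A-type current of dendrites, had the widest region of any potassium channel gene when the overlapping peaks of all 6 lists were merged, at chr7:120678879-120752067 (73189 bp) over the 3' part of the gene and past its end. The widest single peak in the gene was 36984 bp, in WT replicate 2. Its covered share was 48.0% and 77.4% in WT, 51.9% and 75.2% in 231K, and 18.5% and 67.5% in 232P. Both replicate 1 samples of WT and 231K were below their replicate 2, so the groups overlapped. The median local background of peaks on chromosome 7 was at least 1.40 times the lowest background of its library in all 6, and its part in the values of this gene was not tested. KCNC2 was covered over 35.1% and 65.7% in WT, 36.7% and 71.3% in 231K, and 8.03% and 54.2% in 232P. KCNB2, too, was lowest in 232P replicate 1, with 36.6% and 54.3% in WT, 36.5% and 56.1% in 231K, and 9.16% and 41.7% in 232P. KCNA2 and KCNA7 had short marks, with a best TSS peak of 321 to 1677 bp and of 448 to 1469 bp.

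Silent subunits form no channel alone and change the voltage dependence of KCNB channels. Of 10 genes, 3 had a TSS mark in all 6 samples (KCNV1, KCNG2 and KCNS3), 2 in some (KCNF1 and KCNS2) and 5 had no peak. Over all genes, 10.8% had it in all 6 samples and 75% had no peak. KCNV1 was covered over 57.5% and 72.4% in WT, 48.2% and 79.4% in 231K, and 41.3% and 62.1% in 232P, and the genotypes overlapped. KCNG2 was covered over 45.3% and 43.1% in WT, 35.4% and 40.7% in 231K, and 30.0% and 29.3% in 232P. Here every Tau-KO sample lay below both WT samples. Over all genes with a mean covered share of at least 1%, both 232P samples did so in 47.2% and both 231K samples in 13.4%. KCNS3 has 4 annotated start sites, and its canonical one was marked in only 2 samples. Its best TSS peak was 1214 to 3406 bp wide with a fold enrichment between 5.67 and 8.23. In 232P replicate 2 the best peak was another one than in the other samples. KCNS2 had a TSS mark in all samples but 232P replicate 2.

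KCNF1, a silent subunit, has a single start site at position 10911934 of chromosome 2. Under the main settings it alone among potassium channel genes lost its TSS mark, in 231K. Lost means a mark in each WT sample and in neither sample of a line. Of all genes marked in both WT samples, 2.13% lost it in 231K. The call depended on the settings. With lists limited to 147118 peaks each, by strength, no potassium channel gene lost its mark in 231K. KCNG2 was called instead at a -log10 q-value of 5 or more, and KCNMA1 when 500 bp had to be covered. KCNF1 stayed lost in 231K with the 2.5 kb window and at the canonical start site. At a q-value under 0.05 it was lost in both lines. KCNF1 is 2.29 kb long. Its single peak upstream of the start measured 430 bp in WT replicate 1 and 746 bp in WT replicate 2, enriched 3.04- and 4.11-fold. Neither 231K sample had a peak there, nor did 232P replicate 1. In 232P replicate 2 it measured 480 bp, enriched 2.51-fold. These are weak peaks. The -log10 q-values were 2.11 and 3.82 in WT, which put them at percentiles 41.8 and 69.3 of their lists, and 1.27 in 232P replicate 2, at percentile 4.97. The recovered summit heights were 9 and 10 reads in WT and 6 in 232P replicate 2. The local background was 2.28 and 1.68 reads in WT and 1.79 in 232P replicate 2. The lowest background of these libraries was 1.52, 1.38 and 1.27 reads. The part of this raised background in the call was not tested. No height can be recovered where no peak is listed, so how far the other samples lay below the threshold was not tested.

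Inward rectifiers pass potassium more readily into the cell than out and hold the resting potential. Of 16 genes, 10 had no peak, beside 75% of all genes, and 3 had a TSS mark in some samples. In 2 it was in all 6 samples, beside 10.8% of all genes. The 2 are neighbours on chromosome 21, 34.2 kb apart. They are KCNJ6, which encodes a G protein-gated channel of neurons, and KCNJ15, a channel of kidney and other epithelia. KCNJ6 was covered over 56.4% and 60.9% in WT, 55.3% and 69.0% in 231K, and 23.3% and 42.4% in 232P. KCNJ15 was covered over 51.3% and 54.0% in WT, 51.1% and 64.6% in 231K, and 24.1% and 50.4% in 232P. In both genes 232P lay below WT without overlap and 231K did not. Of all genes with a mean covered share of at least 1%, 47.2% lay below WT without overlap in 232P. Peaks of KCNJ15 merged over the 6 lists spanned 56384 bp at chr21:38247617-38304000, and the widest single peak there was 21237 bp, in 231K replicate 2. KCNJ10, a glial channel, and KCNJ3, a partner of KCNJ6, had a TSS mark in 2 and 5 samples. KCNJ18 and KCNJ12 are near-identical copies on chromosome 17, so reads may be placed on either and their peaks are uncertain. The pairs KCNJ1 and KCNJ5, and KCNJ16 and KCNJ2, which lie side by side, had no peak.

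Two-pore channels carry the leak current. Of 15 genes, 3 had a TSS mark in all 6 samples (KCNK2, KCNK10 and KCNK12), 2 in some and 9 no peak. Over all genes, 10.8% had it in all 6 samples and 75% had no peak. KCNK2 and KCNK10 encode TREK channels, which respond to stretch and lipids. By the lowest percentile over the 6 lists, KCNK2 had the highest ranking TSS peaks of the potassium channel genes, at 97.8 or above. In single lists other genes could rank higher. Its fold enrichment was 6.99 and 9.89 in WT, 6.07 and 9.31 in 231K, and 5.99 and 7.56 in 232P, and the genotypes overlapped. It was covered over 48.8% and 72.6% in WT, 54.1% and 73.7% in 231K, and 22.98% and 64.9% in 232P. The best TSS peaks lay downstream of the canonical start site in WT and 231K and upstream of it or up to it in 232P, so these values are not of the same peak. Peaks merged over the 6 lists spanned 36204 bp at chr1:215046560-215082763, and the widest single peak in the gene was 17416 bp, in 231K replicate 2. KCNK12 had a single TSS peak per sample of 1161 to 3058 bp, and KCNK10 was covered over 0.832% to 3.40%. KCNK3, an acid-sensitive channel, had a TSS mark in WT replicate 2 and both 231K samples, and KCNK13 in the same 3.

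Among the 8 calcium- or sodium-activated channel genes, KCNN2 and KCNN3, whose small-conductance channels carry an afterhyperpolarization of neurons, and KCNMA1, the BK channel of large conductance, had a TSS mark in all 6 samples. KCNT1 had it in WT replicate 2 only. All 6 samples had it in 10.8% of all genes. KCNN2 was covered over 28.9% and 41.7% in WT, 27.8% and 42.2% in 231K, and 5.18% and 31.6% in 232P. The other marked genes had little. KCNMA1 spans 769 kb with 57 annotated start sites, none of its marks lay at the canonical one, and its covered share was at most 0.205%. KCNN3 was covered over 0.340% to 2.29%.

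Of 16 auxiliary subunit genes, which encode proteins that bind pore subunits and change their gating or transport, KCNIP4 alone had a TSS mark in all 6 samples. KCNIP4 encodes a calcium-binding partner of KCND channels. The 4 genes KCNIP1, KCNIP3, KCNAB1 and KCNMB4 had a TSS mark in some samples and 10 had no peak. Over all genes, 10.8% had it in all 6 samples and 75% had no peak. The summit of the best TSS peak of KCNIP4 was enriched 5.95- to 8.48-fold over the 6 samples, with the highest value in WT replicate 2 at another start site than in the rest, so the genotypes were not compared on it. Its partners KCND2 and KCND3 had a TSS mark in all 6 samples too. No KCNE gene, whose small subunits join KCNQ channels, had a TSS mark in any sample, as was so for 80.4% of all genes. KCNE1 had peaks elsewhere, over 2.45% to 10.1% of the gene.

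The heat map of the genes with a TSS mark in at least 1 sample shows these differences in extent. Around the limit of 1 kb lay a few genes whose state turns on it. Just inside were KCNB2, KCNS2 and KCNA7, whose farther WT peak was 788, 767 and 643 bp from a start site. Just outside were KCNK3, KCNH5 and KCNJ18, at 1027, 1067 and 1070 bp. Among the longest genes without any peak were KCNMB2 with 571 kb, KCNH7 with 467 kb, KCNH1 with 457 kb, KCNH8 with 387 kb and KCNT2 with 383 kb. A long gene was therefore not always marked. The nearest WT peak to a start site was at least 1228417 bp away in KCNMB2 and at least 95226 bp in KCNT2. KCNQ1, with 404 kb, had no TSS mark and a covered share of at most 0.371%.

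**Figure D3:**
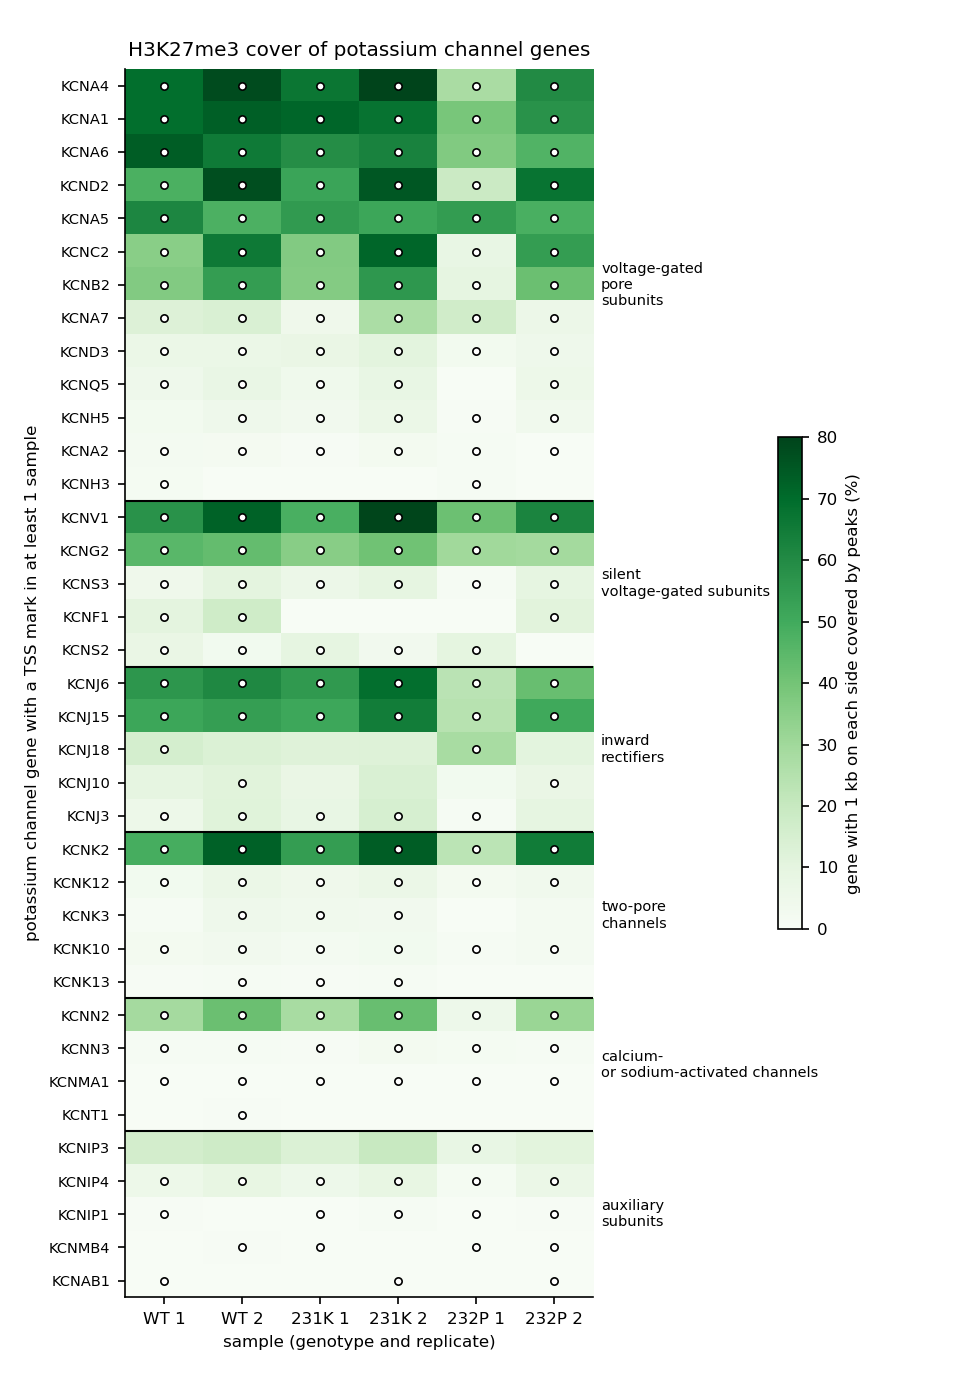
Covered share (percent, colour) of each potassium channel gene with a TSS mark in at least 1 sample (rows, grouped by role) in the 6 samples (columns); circles are TSS marks. KCNA4, KCNA1, KCNA6, KCND2, KCNV1 and KCNK2 are dark in WT and 231K and paler in 232P replicate 1, and KCNF1 has circles in WT and in 232P replicate 2 only.

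The study lists 5 potassium channel genes by their RNA in Tau-KO cells. KCNG1, a silent subunit, KCNH2, the ERG channel of cardiac repolarization, and KCNJ2, an inward rectifier of muscle and heart, had no peak in the gene or 1 kb around it in any sample, WT included. KCNMB4, the neuronal beta subunit of BK channels, had a TSS mark in WT replicate 2, in 231K replicate 1 and in both 232P samples. KCNAB1, a cytoplasmic beta subunit of KCNA channels, had one in WT replicate 1, 231K replicate 2 and 232P replicate 2. None of the 5 was marked in each WT sample, so none could lose the mark under the rule used.

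Around the canonical start sites of the 14 genes marked there in all 6 samples, peaks were sparse at the start itself. Within 0.25 kb of the start, 18.4% and 14.6% of bases lay under peaks in WT, 11.9% and 15.5% in 231K, and 23.5% and 12.6% in 232P. From 2 to 0.5 kb upstream it was 74.5% and 83.2% in WT, 65.5% and 84.2% in 231K, and 47.9% and 61.5% in 232P. The gap was present in every sample and the genotypes overlapped in it. In all 1604 genes marked at the canonical start site in all 6 samples, cover within 0.25 kb was higher than in the potassium channel genes, at 47.4% and 49.4% in WT, 40.6% and 49.7% in 231K, and 32.3% and 36.6% in 232P. In 8 of the 14 potassium channel genes, or 57.1%, no sample had a peak over the window of 300 bases, beside 322 of 1604, or 20.1%. These are KCNA4, KCNA6, KCNA7, KCNB2, KCND3, KCNG2, KCNIP4 and KCNJ6.

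The windows of these 8 genes had a median GC content of 77.5% and a median of 39 CG. In KCNC2 and KCNJ15, whose windows lay under a peak in all 6 samples, the medians were 47.2% and 2.5. Over all 1604 genes the same split was seen, with 71.8% and 32 CG in the 322 genes with an uncovered window and 48.3% and 4 CG in the 419 with a covered one. CGCG, searched on both strands and read the same on each, occurred in the windows of all 8 genes, in 93.8% of the 322 genes with an uncovered window, in 40.9% of the 1604 and in 67.5% of the 19111. GCGCGC, which holds CGCG, occurred in 3 of the 8, in 45.7% of the 322 and in 27.4% of the 19111. TATAAA, searched on both strands, occurred in none of the 14 and in 20.9% of the 1604. Whether GC content affects the recovery of reads in these libraries was not tested.

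**Figure D4:**
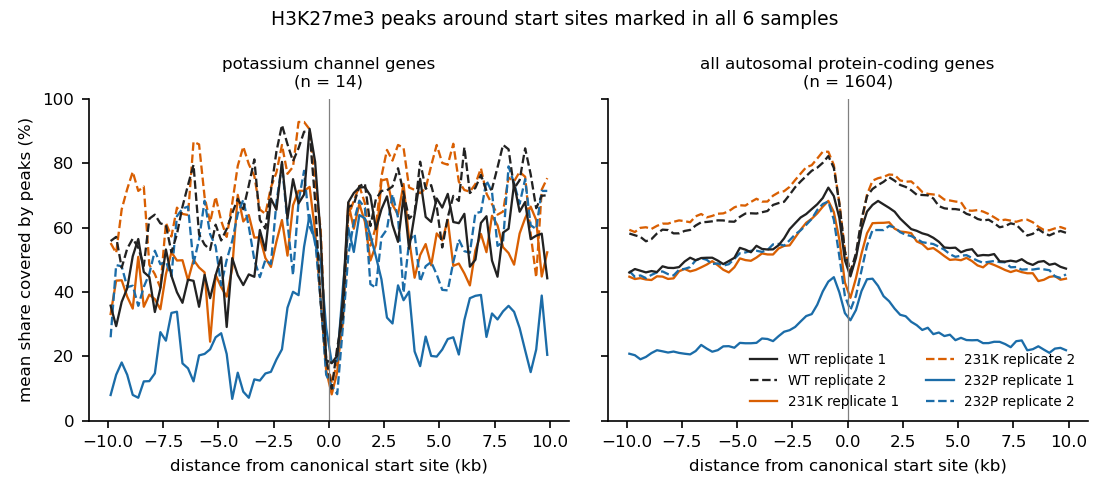
Mean share of bases under peaks (percent, y axis) by distance from the canonical start site in kb (x axis), for the 14 potassium channel genes (left) and the 1604 autosomal protein-coding genes (right) marked there in all 6 samples; lines are the 6 samples, dashed for replicate 2. All lines drop at the start, lower in the potassium channel genes, and 232P replicate 1 has the lowest mean from 5 to 0.5 kb upstream and from 2 to 5 kb downstream.

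The number of potassium channel genes with a TSS mark was 30 and 32 in WT, 30 and 30 in 231K, and 30 and 29 in 232P. The mean was 31 ± 1.41 (SD, n = 2) in WT and 29.75 ± 0.5 (SD, n = 4) in Tau-KO, a ratio of 0.960, with p = 0.267 by an exact two-sided permutation test over samples. Within replicates 1 and 2 the ratio to WT was 1 and 0.938 in 231K, and 1 and 0.906 in 232P. The ratio of Tau-KO to WT for all autosomal protein-coding genes was 0.908 (exact permutation p = 0.267). With any peak in the gene or 1 kb around it there were 42 and 41 potassium channel genes in WT, 39 and 38 in 231K, and 38 and 38 in 232P. Here WT and Tau-KO did not overlap, with a ratio of 0.922 beside 0.928 for all genes, and exact permutation p = 0.0667, the smallest that 2 against 4 samples can give. Permuted within the replicate number, the exact p was 0.111, again the smallest possible. Within replicates 1 and 2 the ratio to WT was 0.929 and 0.927 in 231K, and 0.905 and 0.927 in 232P. Over all genes this count did overlap, at 3974 and 3971 in WT, 3737 and 3976 in 231K, and 3382 and 3649 in 232P (exact permutation p = 0.333). The count was not a planned test, and the alternative settings were not run on it. It includes genes with little cover, such as KCNQ1 with a mean covered share of 0.117%. The study calls the samples of a genotype biological duplicates without saying how the cultures were kept apart. These tests pool both lines as Tau-KO, so their p-values reflect the spread between duplicates and between lines together. Samples of the same line are not independent replicates of the knock-out.

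Both WT samples had a TSS mark in 26 potassium channel genes. Of these, 1 lost it in 231K (KCNF1), or 3.85%, beside 2.13% of all such genes, and none lost it in 232P, beside 5.42%. A gain, as a mark in no WT sample and in both samples of a line, was found in none of 58 genes in either line, beside 0.159% of all such genes in 231K and 0.0765% in 232P. These calls carry no test, since an exact permutation of 2 against 2 samples cannot give a p under 0.333 for a single gene. Every peak was lost in 1 of 38 genes in 231K (KCNF1, background 1.82%) and in 1 of 38 in 232P (KCNQ1, background 4.7%). KCNQ1 had peaks over 0.371% and 0.152% of the gene in WT. A first peak, in genes with none in WT, was gained in none of 49 genes in either line (background 0.243% in 231K and 0.101% in 232P). These counts lie near the background.

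The extent of the marks in 232P was below that of WT within both replicate numbers, here and over all genes. Covered length in the potassium channel genes was 1330 and 1838 kb in WT, 1336 and 1936 kb in 231K, and 483 and 1469 kb in 232P. Replicate 2 was higher in each genotype, so each line was also set against WT within its replicate number. The ratio to WT was 1.03 in 231K (1.00 and 1.05 within replicates 1 and 2) and 0.616 in 232P (0.363 and 0.7996). Over all genes it was 0.995 and 0.599 (0.368 and 0.775 within replicates for 232P). Tau-KO over WT gave 0.825 with an exact permutation p of 0.8, so the difference between all Tau-KO samples and WT was within the spread between samples. That test pools the lines, and for 232P alone the exact permutation p could not go below 0.333. KCND2, KCNC2, KCNB2, KCNV1 and KCNK2, in which the genotypes overlapped, also had a lower covered share in 232P than in WT within each replicate number. The list of 232P replicate 1 was also the smallest, and when each list was cut to its 147118 strongest peaks the ratio of all Tau-KO samples to WT was 0.876. Without that sample Tau-KO over WT was 0.998, and without 231K replicate 2 it was 0.692. Both leave Tau-KO with unequal numbers of the 2 replicates, of which replicate 2 was the higher.

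By gene, the covered share of 232P did not overlap that of WT and was lower in 12 of the 34 potassium channel genes kept (a mean covered share of at least 1%), beside 47.2% of the 3543 genes kept in all. Among them were KCNA1, KCNA2, KCNA4, KCNA6, KCND3, KCNG2, KCNIP3, KCNJ6, KCNJ10, KCNJ15 and KCNK10. It was higher in KCNN3 alone, beside 0.452%. In 231K it was lower in 4 (KCNA6, KCNF1, KCNG2 and KCNJ18), beside 13.4%, and higher in 2 (KCND3 and KCNE1), beside 5.02%.

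None of the potassium channel genes passed limma on the log2(covered share + 1) scale with an adjusted p under 0.05, in either line, and none of the 3543 genes did (background 0%). At an unadjusted p under 0.05 there were 45 genes in 231K, with 1 potassium channel gene, and 311 in 232P, with none. The 1 gene was KCNF1, with a log2 difference of -3.83 (SE 1.20) in 231K and an adjusted p of 1 by limma. The median log2 difference of the 34 genes was -0.01 in 231K and -0.76 in 232P, beside -0.05 and -0.85 over all genes kept. Quantile normalization, which makes the 6 samples alike in their distribution, gave medians of 0.12 and 0.40, beside 0.02 and 0.01 over all genes kept. It removes a shift shared by all genes by construction, so these values are relative to the other genes and do not show the direction of the change itself. Without 232P replicate 2, limma called 1678 of 3555 genes in 232P (47.2%), 12 of them potassium channel genes and all lower. This call rests on 232P replicate 1 alone, assumed to vary like the other genotypes, and the plot of covered share by sample shows how far that sample lies from its replicate.

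**Figure D5:**
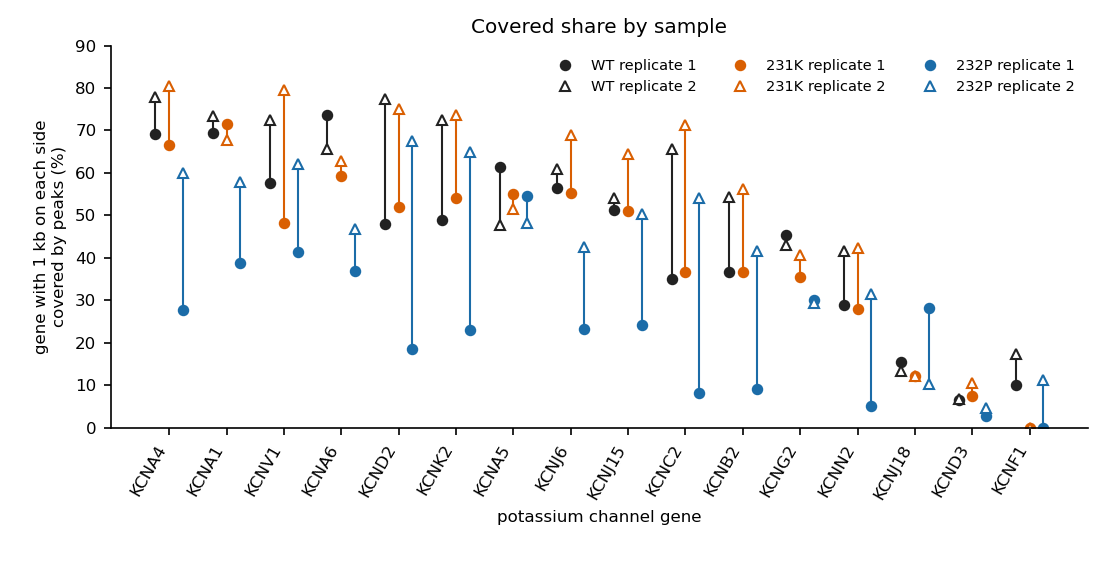
Covered share (percent, y axis) of 16 potassium channel genes (x axis) in the 6 samples; filled circles are replicate 1, open triangles replicate 2, colours the genotypes, and lines join the replicates of a genotype. 232P replicate 1 is the lowest sample in KCNA4 at 27.7% and in KCNC2 at 8.03%, and both 231K samples are at 0 in KCNF1.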

How the data were processed

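The 94 genes, the gene lists and the tests were chosen with earlier results of these data known. The authors used trimmomatic for trimming, BWA for mapping to hg38 and MACS (version 2) for calling peaks in each sample. Their methods name the broadPeak setting, whereas the deposited lists have the narrowPeak columns and hold more peaks than the methods give, so they may stem from another peak call. The q-value threshold, fragment length, handling of duplicates and control library are not given in the sources used here. The deposited fold enrichment is a ratio of summit reads to background after adding 1 to both. The lists also hold deposited -log10 p-values and q-values and a deposited score made from the q-value. All of them vary with sequencing depth, and read totals are not in the lists, so no interval from read counts is given. Peak names in both 232P lists start with 231P, another Tau-KO line of the study. Samples were assigned by their labels. Columns of per-sample values left out numbered 0.

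Start sites and genes came from GENCODE release 44, on chromosomes 1 to 22. Peak height and local background were recovered from the deposited fold and p-value with the Poisson distribution, and 100% of heights were whole within 0.001 of the -log10 p-value. Counts of genes and covered lengths were compared by exact two-sided permutation tests over the 6 samples. Covered share was tested with limma 3.58.1 (R 4.3.3, lmFit and eBayes with trend) on log2(covered share + 1), with a pseudocount of 1 percent, Benjamini-Hochberg adjustment and all 6 samples in the fit. Genes kept had a mean covered share of at least 1%. The step was tested on simulated data for 231K against WT over 3543 genes. It recovered 0% of 200 genes changed by a log2 difference of 1 or of 2 and 21% of those changed by 3. Other numbers were computed in Python 3.11.15.

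Genes named were those with a TSS mark lost or gained, the 10 with the highest ranking TSS peaks by their lowest q-value percentile over the lists, the 5 with the highest mean covered share, the 5 longest without a peak and without a TSS mark, those the study lists by RNA, and the 3 on either side of the 1 kb limit. Other genes were named after their values were seen, and the results of some single genes are not reported here. Promoter windows were read from hg38 at the canonical start sites. Alternatives tried were a q-value under 0.05, a stricter -log10 q-value (5 or more), an equal number of strongest peaks (147118), a window of 2.5 kb, the canonical start site only, at least 500 bp of the window covered, start sites only for covered length, a pseudocount of 5 percent, no filter, quantile normalization, the replicate block, and leaving out each replicate in turn.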

Additional observations from a re-analysis of the deposited data

Results flagged for a closer look

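KCND3, which encodes an A-type channel of heart and brain, lay on opposite sides of WT in the Tau-KO lines. Its mean covered share was 6.63% in WT, 8.93% in 231K and 3.74% in 232P. The samples were at 6.56% and 6.69% in WT, 7.44% and 10.4% in 231K, and 2.76% and 4.71% in 232P, so that every 231K sample lay above and every 232P sample below both WT samples. Its TSS mark was present in all 6 samples. Over all genes kept, 5.02% lay above WT in 231K and 47.2% below WT in 232P. KCND3 was picked because it met both conditions, and how many of all genes do so was not counted. Its log2 difference in 232P, -0.72, was smaller in size than the median of all genes kept, -0.85. The difference between the lines, tested as a contrast in limma, was 1.08 on the log2(covered share + 1) scale (SE 0.66, adjusted p = 0.489), which did not pass the threshold.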

How the results depend on the processing

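Of 62 results recomputed under an alternative other than leaving out a sample, 52 stayed (counts within 1.5 times the reported one, ratios and tests on the same side), 10 counts moved by more and none reversed. Among the 52 are all limma counts, which were 0 in both lines under each of these alternatives. In the simulation limma recovered 0% of genes changed by a log2 difference of 2, so counts that stay at 0 say little. The number of potassium channel genes with a TSS mark in all 6 samples, 22, became 8 at a -log10 q-value of 5 or more, 14 at the canonical start site only and 13 with at least 500 bp of a window covered. Genes with a TSS mark lost in 231K, 1 in the report, became 0 with an equal number of strongest peaks and 2 with a window of 2.5 kb (KCNF1 and KCNH3). The count stayed at 1, with another gene, at a -log10 q-value of 5 or more (KCNG2) and at 500 bp (KCNMA1). Genes gained in 231K, 0 in the report, became 1 at a -log10 q-value of 5 or more (KCNMA1) and 1 with an equal number of peaks (KCNK3). Genes lost in 232P, 0 in the report, became 3 at a -log10 q-value of 5 or more (KCNJ6, KCNQ5 and KCNS2), 1 with a q-value under 0.05 (KCNF1) and 1 at 500 bp (KCNMA1). The causes of these moves were not tested.

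Leaving out each sample in turn gave 22 to 24 genes with a TSS mark in all samples, 57 to 58 with none, 1 to 3 lost and 0 to 3 gained in 231K, and 0 to 3 lost and 0 to 2 gained in 232P. Tau-KO over WT was 0.930 to 0.992 for genes with a TSS mark and 0.692 to 0.998 for covered length. Genes with a changed covered share by limma numbered 0 to 0 in 231K and 0 to 12 in 232P, the 12 without 232P replicate 2 only.

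Genotypes share replicate numbers but nothing ties samples of the same number to 1 culture or day. Their deviations correlated at 0.24 (WT with 231K), 0.28 (WT with 232P) and 0.14 (231K with 232P) across genes, which are not independent. With the replicate block, Tau-KO over WT stayed at 0.960 (exact permutation p = 0.333) and 0.825 (exact permutation p = 0.778), and limma called 0 genes in either line. The precision is limited by 2 samples per genotype, by unequal lists and by heights of a few reads at weak peaks such as that of KCNF1.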
